A study of Homo sapiens with 6 samples.

Results

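The nuclear-encoded subunits of the mitochondrial respiratory chain and of the ATP synthase were followed in SUM149 cells, a human line of inflammatory breast cancer, after siRNA transfection. Members were the genes with a probe set of 1 symbol that matched the subunit families NDUFA, NDUFB, NDUFC, NDUFS and NDUFV followed by a number, SDHA to SDHD, UQCR, CYC1, COX4 to COX8, and ATP5. Pseudogenes were left out, and the probe set with the highest mean signal stood for each gene. This gave 77 of the 19775 genes tested, measured by 151 of the 41091 probe sets with 1 symbol. The 77 genes comprised 32 of complex I, 3 of complex II, 7 of complex III, 17 of complex IV and 18 of complex V, the ATP synthase.

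The series compared cells given an siRNA pool against TIG1 (siTIG1, 3 arrays) with cells given a non-targeting pool (siControl, 3 arrays), on Affymetrix HG-U133 Plus arrays. TIG1 is the older name of RARRES1. Both pools were delivered with oligofectamine at 200 nmol/L, to cells grown in Ham's F-12 medium with serum, insulin and hydrocortisone. The TIG1 pool was an ON-TARGET Plus SMART pool and the control a siGENOME pool, so target and siRNA product line differed together. Whether a group's arrays came from separate cultures is not stated, and the spread that the p-values are set against may therefore be technical. No time after transfection is stated in the sources used here.

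The respiratory chain passes electrons from NADH, through complex I, and from succinate, through complex II, to ubiquinone, then through complex III and cytochrome c to complex IV, which reduces oxygen. Complexes I, III and IV pump protons across the inner mitochondrial membrane, and complex V uses that gradient to make ATP. Each complex is built from many subunits, most of them encoded in the nucleus and imported, and all but complex II also hold subunits encoded by the mitochondrial genome.

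Before the members' values are given, the arrays need a short account. TIG1 had a lower mean on the siTIG1 arrays on each of its 3 probe sets, and none passed the test (limma adjusted p of 0.187, 0.217 and 0.262 for differences of −1.28, −1.24 and −0.83 in log2 signal). These differences leaned on siControl replicate 3, its highest array on each probe set, at 12.58, 13.55 and 13.74. The other controls had 11.04, 11.89 and 12.65 (replicate 1) and 10.92, 11.88 and 12.61 (replicate 2). On the third probe set siTIG1 replicate 1, at 12.69, lay above siControl replicates 1 and 2, so the groups overlapped. siControl replicate 3 stood apart, with a correlation of 0.985 with each of the other control arrays over all probe sets, against 0.998 between those 2 and 0.992 to 0.993 between siTIG1 arrays and them. The 3 prime minus 5 prime difference of the ACTB control probe sets, a sign of RNA degradation, was 2.25 ± 0.10 on the siTIG1 arrays and 2.85 ± 0.31 on the siControl arrays in log2 signal (SD, n = 3 each; a 2-sided exact permutation test gave p = 0.1, the smallest that 3 against 3 allows), with 3.21 on siControl replicate 3. For GAPDH it was 0.46 ± 0.01 on the siTIG1 arrays and 0.50 ± 0.06 on the siControl arrays, with 0.57 on siControl replicate 3 (exact permutation p = 0.2). Of the 6 epithelial markers, 5 had a higher siTIG1 mean, with a median difference of 0.23. Without siControl replicate 3 their median was 0.25 and 4 were called higher, where 12.3% of all genes were. EPCAM, the exception with all arrays, averaged 14.34 on siTIG1 and 14.39 on siControl arrays, near the top of the table's range of 4.28 to 15.59. KRT19, a keratin of simple epithelia, rose by 1.00 (limma adjusted p = 0.016). None of the 4 leukocyte, 5 fibroblast, 5 endothelial and 5 muscle markers measured passed the test with all arrays (limma adjusted p of at least 0.05). Without siControl replicate 3, 1 leukocyte and 1 muscle marker were called higher, and no fibroblast or endothelial marker was called. The table carries no detection calls, so absence of the non-epithelial markers was not shown. Counts and medians of the 77 genes are therefore given with and without siControl replicate 3.

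Across the 77 genes, 1 was called higher and 2 lower in siTIG1 cells at a limma adjusted p under 0.05. SDHC, a membrane anchor of complex II, rose. ATP5F1D, the delta subunit of the ATP synthase head, and CYC1, the haem-bearing cytochrome c1 of complex III, fell. The other 74 did not pass. The called share was 3.90% of the members, against 7.32% of all genes tested (3.15% higher and 4.17% lower). Before adjustment, 16 of the 77 had p under 0.05, against 4338 of the 19775 genes.

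Differences were small. In log2 signal, siTIG1 minus siControl, the 77 genes ran from −0.40 to 0.52, none reached 1 and 1 reached 0.5. The median size of a member's difference, sign left out, was 0.12, against 0.10 over all genes, and 62 of the 77 (80.5%) were under 0.25, against 79.7% of all genes. The sign was less even. Of the 77 genes, 61 (79.2%) had a higher mean on the siTIG1 arrays, against 54.8% of all genes, and the median difference was 0.10, against 0.02 over all genes. On 33 genes every siTIG1 array lay above every siControl array and on 4 every one lay below, while 40 overlapped. Over all genes, 16.6% lay wholly above and 15.4% wholly below. These counts rest on the brightest probe set of each gene. Of the 44 members with more than 1 probe set, 26 had differences of both signs. Averaging the probe sets of each gene gave a median of 0.05 over the members. Probe sets with several symbols matched a subunit family in 12 cases. Of these 12, 6 had a higher siTIG1 mean, 5 lay wholly above and 4 wholly below. In RNA from bulk cells, fewer cells of a kind and less RNA per cell cannot be told apart.

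**Figure D1:**
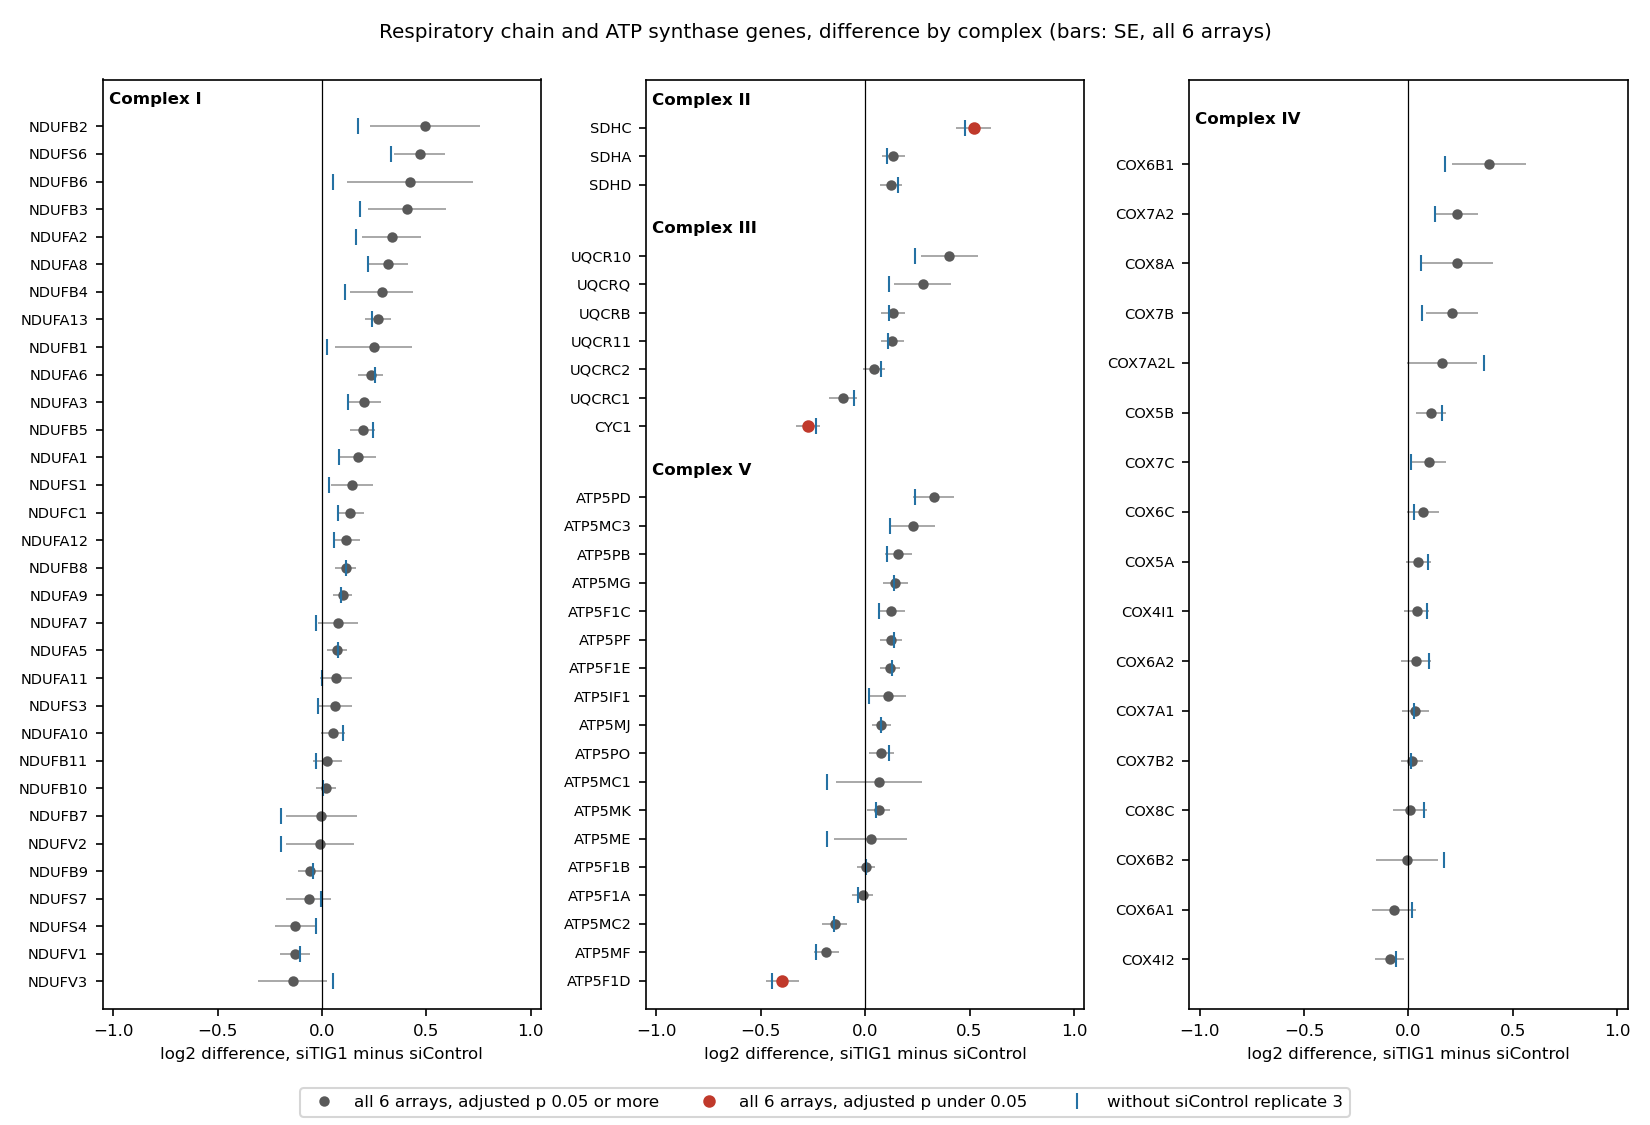
Log2 difference of siTIG1 minus siControl for each of the 77 genes, by complex, with grey bars for the SE over all 6 arrays and blue ticks for the difference without siControl replicate 3. Most points lie between 0 and 0.5, the 3 red points are SDHC, CYC1 and ATP5F1D, and the ticks of NDUFB2, NDUFB6 and NDUFB3 lie well to the left of their points.

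The lean to higher values was smaller without siControl replicate 3. That array was the lowest of the 6 for 41 of the 77 genes and the highest for 16, whereas over all 19775 genes it was lowest for 5621 and highest for 6225. The median deviation of the members from their own mean over the 6 arrays was 0.06, 0.05 and 0.04 on siTIG1 replicates 1, 2 and 3, and 0.00, 0.00 and −0.10 on siControl replicates 1, 2 and 3. Without siControl replicate 3 the members' median difference was 0.08, and 58 of the 77 had a higher siTIG1 mean. Its larger 3 prime minus 5 prime difference stands beside these values, and its part in the result was not tested. With that array left out the spread within the control group shrank, and limma called 14 members higher and 5 lower, 24.7% of the 77, against 27.2% of all genes (12.3% higher and 14.9% lower).

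**Figure D2:**
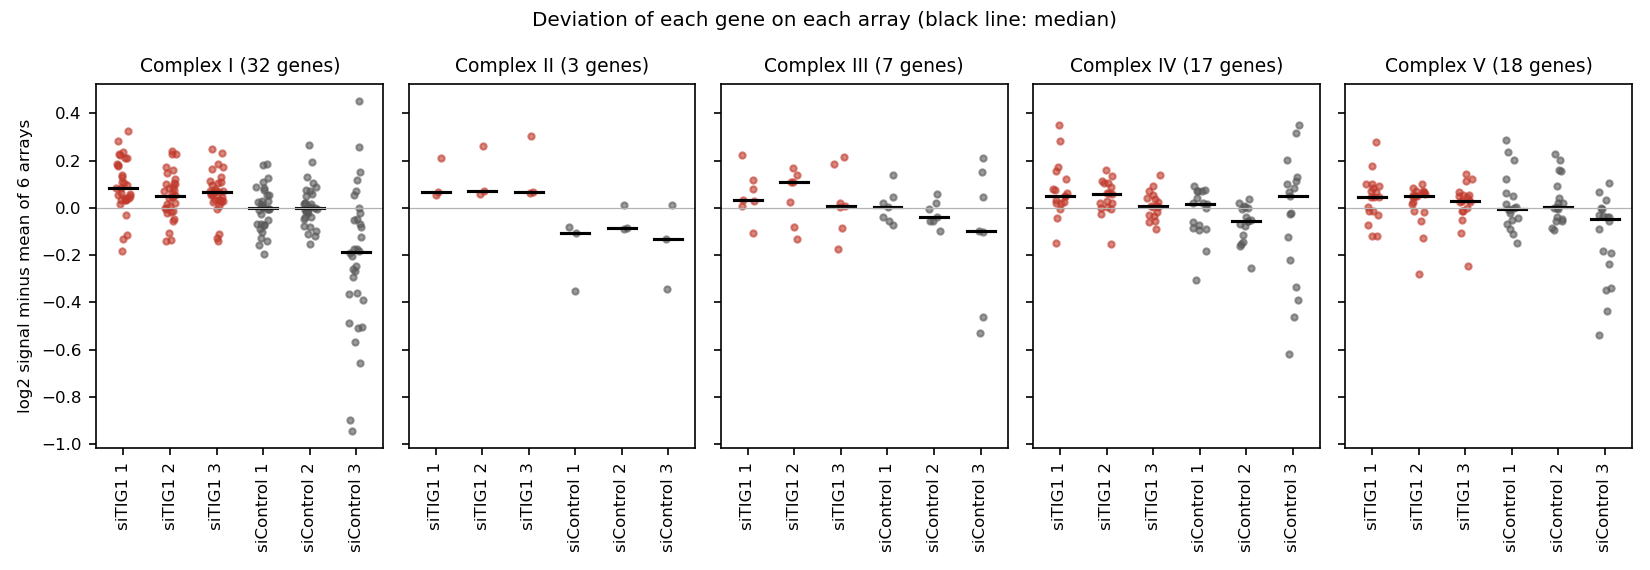
Log2 signal of each gene minus its mean over the 6 arrays, per array and complex, with red points for siTIG1, dark points for siControl and a black line at the median. The complex I medians are 0.08, 0.05 and 0.07 on the siTIG1 arrays and 0.00, 0.00 and −0.19 on siControl replicates 1, 2 and 3, and single complex I genes fall below −0.5 on siControl replicate 3.

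Promoter sequence was examined because many members shared a sign and because respiratory genes are known for sites of NRF1, GABPA (also called NRF2) and YY1 near their starts. RefSeq windows of GRCh38.p14, from 250 bases before to 50 after the start, were held for 65 of the 77 genes, with no entry for SDHC, ATP5F1D or CYC1. The letters GCGCNTGCG (NRF1), CCGGAAG (GABPA) and AAGATGGCG (YY1) were searched on both strands. Overlapping matches of 1 motif counted as 1, and matches of different motifs were counted whether or not they overlapped. The NRF1 letters were in 33.8% of the members' windows, against 8.05% of all 27305 windows and 11.2% of the 15382 windows of tested genes. The GABPA letters were in 27.7%, against 10.7% of all windows and 14.4% of those of tested genes. For the YY1 letters the shares were 10.8%, 1.85% and 2.76%. At least 1 of the 3 motifs was in 37 of the 65 windows (56.9%), against 18.3% of all windows and 25.1% of the windows of tested genes. A match describes letters and was not shown to be a bound site.

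The 200 bases before the start are shown for 5 members whose arrays did not overlap between groups, to contrast windows with and without the letters. They were chosen after their values were seen. They are SDHA at chr5:218120-218319, SDHD at chr11:112086673-112086872, NDUFS6 at chr5:1801207-1801406, NDUFA13 at chr19:19516025-19516224 and NDUFB2 at chr7:140696508-140696707, all on the plus strand of GRCh38.p14. Sequences run 5′ to 3′ and capitals mark matches to the NRF1 or GABPA letters.
SDHA: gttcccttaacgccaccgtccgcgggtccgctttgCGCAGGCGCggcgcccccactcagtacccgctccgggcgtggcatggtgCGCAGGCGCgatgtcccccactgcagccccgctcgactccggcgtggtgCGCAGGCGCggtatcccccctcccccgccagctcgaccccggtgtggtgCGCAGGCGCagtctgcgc
SDHD: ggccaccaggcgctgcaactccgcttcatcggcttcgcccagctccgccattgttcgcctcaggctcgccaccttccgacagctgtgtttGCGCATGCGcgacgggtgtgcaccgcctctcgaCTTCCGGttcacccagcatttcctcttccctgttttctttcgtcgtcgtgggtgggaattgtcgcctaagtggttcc
NDUFS6: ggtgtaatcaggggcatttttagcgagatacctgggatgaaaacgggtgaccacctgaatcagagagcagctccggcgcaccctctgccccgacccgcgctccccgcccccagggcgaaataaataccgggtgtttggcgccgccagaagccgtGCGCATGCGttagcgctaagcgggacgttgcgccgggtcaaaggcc
NDUFA13: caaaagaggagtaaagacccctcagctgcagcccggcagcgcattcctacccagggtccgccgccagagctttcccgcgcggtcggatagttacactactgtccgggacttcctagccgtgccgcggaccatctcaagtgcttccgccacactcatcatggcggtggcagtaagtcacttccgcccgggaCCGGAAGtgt
NDUFB2: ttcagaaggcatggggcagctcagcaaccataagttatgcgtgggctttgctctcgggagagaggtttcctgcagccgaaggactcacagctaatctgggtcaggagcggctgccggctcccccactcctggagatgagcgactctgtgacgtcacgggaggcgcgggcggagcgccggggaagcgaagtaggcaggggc
SDHA held 4 NRF1 matches, which began 165, 116, 67 and 18 bases before the start. SDHD held an NRF1 match from 110 and a GABPA match from 77 bases before the start. NDUFS6 held an NRF1 match from 46 and NDUFA13 a GABPA match from 10 bases before the start. The NDUFB2 window had none of the 3 motifs in these exact letters, and all 5 genes had their siTIG1 arrays above their siControl arrays. ATP5MC2, whose siTIG1 arrays all lay below, is not printed and held an NRF1 match from 41 bases before the start. Whether motifs went with the direction of a difference was not tested. Of the factors themselves, YY1 is not reported here. GABPA differed by 0.30 (limma adjusted p = 0.361) and NRF1 by −0.20 (limma adjusted p = 0.273), neither passing. GABPA and NRF1 were picked after their values were seen.

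Complex I, NADH dehydrogenase, takes electrons from NADH. None of its 32 genes passed the test with all arrays, and 25 had a higher siTIG1 mean. An unadjusted p under 0.05 was found for 6 of the 32, against 4338 of all 19775 genes. The median difference was 0.12. On 16 genes the siTIG1 arrays lay wholly above the siControl arrays and on none wholly below, where 16.6% and 15.4% of all genes did. Without siControl replicate 3 the median was 0.07, and 8 genes were called higher and none lower. siControl replicate 3 was the lowest array for 21 of the 32, and over all 32 its signal minus the mean of the other controls had a median of −0.19.

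The catalytic parts of complex I were mixed in sign. NDUFV1, which binds NADH and the flavin, had log2 signals of 12.77, 12.91 and 12.99 on siTIG1 arrays, against 12.96, 13.03 and 13.07 on siControl arrays, a difference of −0.13 ± 0.07 (SE, limma adjusted p = 0.356). The groups overlapped. NDUFS1, the large iron-sulfur subunit next to it in the electron path, differed by 0.14 ± 0.10 with all arrays (limma adjusted p = 0.471) and by 0.03 without siControl replicate 3. All 3 NDUFV genes had negative differences, with a median of −0.13. NDUFV3, an accessory subunit of the NADH-binding arm, stood at −0.14 with all arrays and at 0.05 without siControl replicate 3, which was its highest array. A dimmer NDUFV3 probe set stood at 0.17 with the siTIG1 arrays all higher (limma adjusted p = 0.130 over every probe set). NDUFS4, an accessory subunit of the same arm, stood at −0.13 (limma adjusted p = 0.503).

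On the probe set that stood for each gene, the accessory subunits of the NDUFA family leaned 1 way. All 12 had a higher siTIG1 mean, with a median of 0.15, and 9 had groups that did not overlap, where 16.6% of all genes lay wholly above. Leaving out siControl replicate 3 gave a median of 0.10, and 10 of the 12 had a higher siTIG1 mean. None passed with all arrays, and 4 had an unadjusted p under 0.05. Dimmer probe sets of these genes did not share the sign. Those of NDUFA5 and NDUFA7 stood at −0.19 and −0.20, and those of NDUFA11 at −0.14 and −0.12. The dimmer set of NDUFA6 stood at 0.09, and those of NDUFA2 and NDUFA10 had both signs. NDUFA13, also known as GRIM-19, had 11.73, 11.60 and 11.57 on siTIG1 arrays, against 11.40, 11.39 and 11.31 on siControl arrays. Here every siTIG1 array was above every control, siControl replicate 3 was close to the other 2, and the difference of 0.27 ± 0.06 had a limma adjusted p of 0.057. NDUFA6, a subunit with the LYR motif, had 12.81, 12.69 and 12.74 on siTIG1 arrays, against 12.44, 12.56 and 12.55 on siControl arrays (0.23 ± 0.06, limma adjusted p = 0.077). Without siControl replicate 3, NDUFA13 (limma adjusted p = 0.016), NDUFA6 (limma adjusted p = 0.012), NDUFA8 (limma adjusted p = 0.010) and NDUFA2 (limma adjusted p = 0.034) were called higher. They were 33.3% of the 12, where 12.3% of all genes were called higher.

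NDUFS6, an accessory subunit known for binding zinc, had the second largest difference of complex I, after NDUFB2. Its log2 signals were 13.09, 13.09 and 13.12 on siTIG1 arrays, against 12.71, 12.83 and 12.36 on siControl arrays. The siTIG1 arrays were all higher, and the 0.47 ± 0.12 difference had a limma adjusted p of 0.078. Without siControl replicate 3 it was 0.33 (limma adjusted p = 0.002).

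In the NDUFB family, subunits of the membrane arm, the values depended on siControl replicate 3. Its 11 genes had a median difference of 0.19 with all arrays and 0.05 without siControl replicate 3, which lay a median of 0.52 below the other control arrays. NDUFB2 had 13.03, 12.98 and 12.98 on siTIG1 arrays, against 12.82, 12.82 and 11.85 on siControl arrays. siControl replicate 3 lay 0.98 below the mean of the other controls, and the 0.50 ± 0.26 difference (limma adjusted p = 0.342) became 0.17 without it (limma adjusted p = 0.033). NDUFB6 had 11.83, 11.68 and 11.64 on siTIG1 arrays, against 11.69, 11.64 and 10.56 on siControl arrays. The difference of 0.42 (limma adjusted p = 0.485) became 0.05 without the last of them (limma adjusted p = 0.598). NDUFB5 ran the other way: siControl replicate 3 was its highest control array, and its 0.19 ± 0.06 (limma adjusted p = 0.113) became 0.24 without it (limma adjusted p = 0.005).

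Complex II, succinate dehydrogenase, links the tricarboxylic acid cycle to the chain and has no mitochondrially encoded subunit. The 3 genes measured all lay higher in siTIG1 with no overlap, where 16.6% of all genes did. Their median was 0.13, or 0.16 without siControl replicate 3. SDHC had log2 signals of 12.40, 12.45 and 12.49 on siTIG1 arrays, against 11.84, 12.11 and 11.84 on siControl arrays. The lowest siTIG1 array lay above the highest control, and SDHC rose by 0.52 ± 0.09, a fold of 1.43 (limma adjusted p = 0.021). The call was kept without siControl replicate 2 (limma adjusted p = 0.022) or 3 (limma adjusted p = 0.002). It was lost without siControl replicate 1 (limma adjusted p = 0.071) or siTIG1 replicate 1, 2 or 3 (limma adjusted p of 0.079, 0.107 and 0.109), with a difference of 0.47 to 0.61 throughout.

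SDHA, the flavoprotein that oxidises succinate, had 13.31, 13.32 and 13.31 on siTIG1 arrays, against 13.17, 13.26 and 13.12 on siControl arrays (0.13 ± 0.05, limma adjusted p = 0.223). SDHD, the other membrane anchor, had 12.85, 12.85 and 12.86 on siTIG1 arrays, against 12.69, 12.70 and 12.80 on siControl arrays (0.12 ± 0.05, limma adjusted p = 0.246). SDHD was called higher at 0.16 without siControl replicate 3 (limma adjusted p = 0.038). The siTIG1 arrays of each gene nearly coincided and the controls were all lower. SDHB, the iron-sulfur subunit, was not analysed here.

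**Figure D3:**
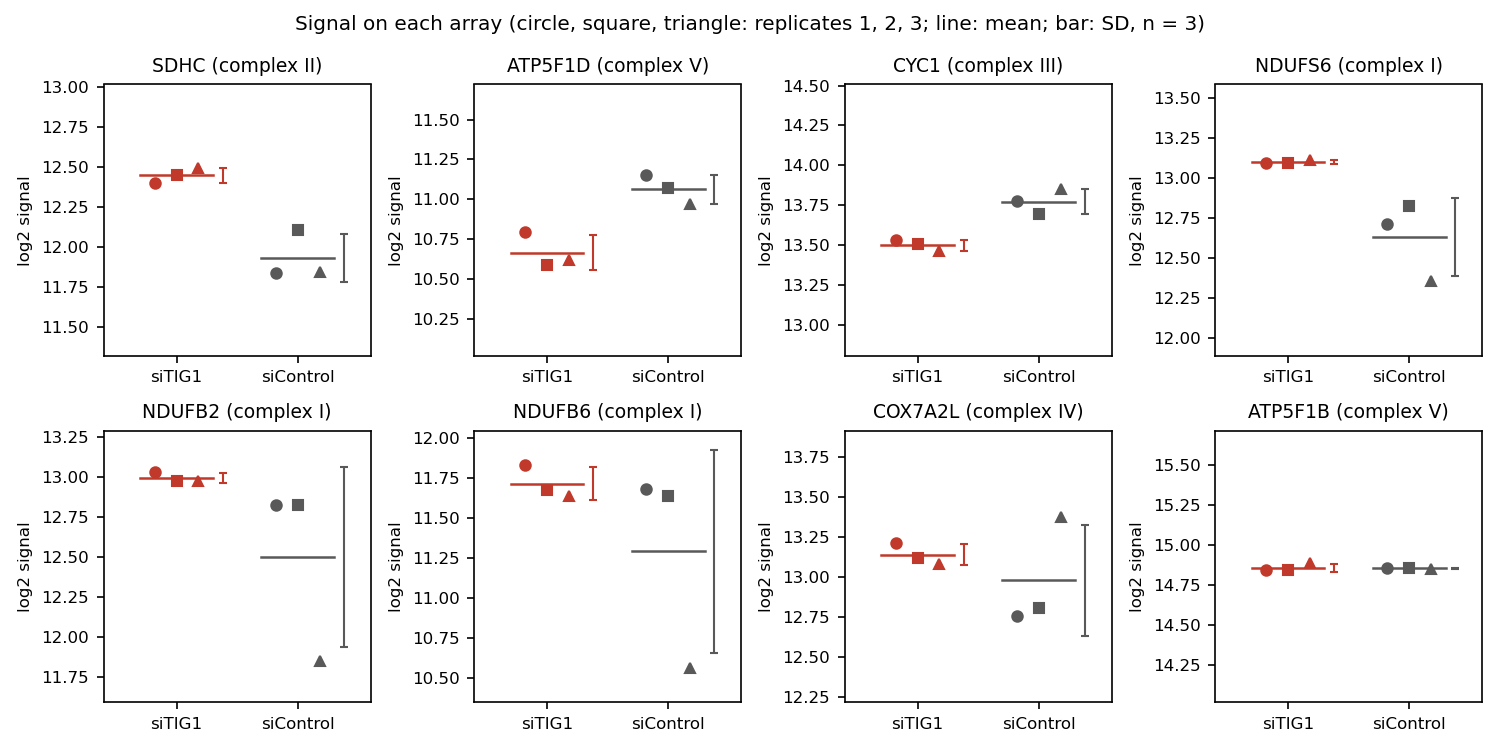
Log2 signal of 8 genes on each array, with siTIG1 at the left and siControl at the right of each panel, a line for the mean and a bar for the SD (n = 3); panels share a span and differ in position. SDHC lies higher and ATP5F1D and CYC1 lower in siTIG1 on every array, siControl replicate 3 (triangle) is far below the rest for NDUFB2 and NDUFB6 and above the rest for COX7A2L, and the 6 arrays of ATP5F1B nearly coincide.

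Complex III, the cytochrome bc1 complex, had 5 of 7 genes with a higher siTIG1 mean, with a median of 0.13, or 0.11 without siControl replicate 3. CYC1, which hands electrons to cytochrome c, had 13.53, 13.51 and 13.46 on siTIG1 arrays, against 13.78, 13.69 and 13.85 on siControl arrays. All siTIG1 arrays were lower, and CYC1 fell by 0.27 ± 0.06, a fold of 1.21 (limma adjusted p = 0.045). Leaving out siControl replicate 3 kept the call (limma adjusted p = 0.010). Leaving out siControl replicate 1 or 2 ended it (limma adjusted p of 0.124 and 0.068), as did leaving out siTIG1 replicate 1, 2 or 3 (limma adjusted p of 0.130, 0.170 and 0.186).

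On the probe set that stood for each gene, the small subunits of complex III lay on the other side. UQCR10 had 12.18, 12.13 and 12.18 on siTIG1 arrays, against 11.89, 11.96 and 11.43 on siControl arrays. The groups were apart, and the 0.40 ± 0.14 difference (limma adjusted p = 0.157) was 0.24 without siControl replicate 3 (limma adjusted p = 0.008). UQCRQ, the ubiquinone-binding neighbour, differed by 0.28 (limma adjusted p = 0.308) and UQCRB by 0.13 (limma adjusted p = 0.252), both with groups that did not overlap. Dimmer probe sets did not all share the sign. Those of UQCR10 and UQCR11 stood at −0.04 and −0.04, and those of UQCRB at 0.14, −0.06 and −0.19. UQCRC1, a core protein without redox groups, had a difference of −0.11 with overlapping groups (limma adjusted p = 0.428). UQCRFS1, the Rieske protein, was not analysed here.

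Complex IV, cytochrome c oxidase, had the smallest median difference of the complexes with all 6 arrays. None of its 17 genes passed the test, none had an unadjusted p under 0.05, and 2 had groups that did not overlap, against 32% of all genes. The median was 0.05, and 0.07 without siControl replicate 3, with 2 genes then called higher (11.8%, against 12.3% of all genes called higher). COX4I1, COX5A and COX5B, widely made subunits around the catalytic core, differed by 0.04, 0.05 and 0.11, with limma adjusted p of 0.767, 0.708 and 0.440. COX6B1, on the outer face of the complex, had 12.00, 11.88 and 11.86 on siTIG1 arrays, against 11.73, 11.74 and 11.10 on siControl arrays. Its groups were apart, at 0.39 ± 0.18 (limma adjusted p = 0.276), and siControl replicate 3 was well below the rest. COX7A2, the general form of a subunit with a muscle form, stood at 0.23 with groups apart (limma adjusted p = 0.246).

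Complex IV has paralogs made in few tissues. The muscle and heart forms COX6A2 and COX7A1 differed by 0.04 and 0.03, and the lung form COX4I2 by −0.09. The testis forms COX6B2, COX7B2 and COX8C differed by −0.01, 0.02 and 0.01. The 6 tissue forms had a median of 0.01 and all overlapped between groups, while the 11 other complex IV genes had a median of 0.11 and 10 higher means. The medians lay closer without siControl replicate 3, at 0.05 for the tissue forms and 0.09 for the others. Signal level also differed. COX8C, COX7B2, COX7A1, COX6A2 and COX6B2 averaged 4.99, 7.32, 7.46, 8.46 and 8.57 on siTIG1 arrays, under the median gene level of 8.74. COX4I2 averaged 9.36, and the lowest of the other complex IV genes, COX6B1, averaged 11.91. Without detection calls, whether the tissue forms were expressed was not shown, and small differences at low signal say little. Among the general partners, COX8A stood at 0.23 (limma adjusted p = 0.499), COX7B at 0.21 (limma adjusted p = 0.403) and COX6A1 at −0.07 (limma adjusted p = 0.767), all with overlapping groups.

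For COX7A2L, a protein that joins complexes III and IV into supercomplexes, siControl replicate 3 lay apart on the high side. Its signals were 13.22, 13.12 and 13.08 on siTIG1 arrays, against 12.75, 12.81 and 13.38 on siControl arrays. The last control was the highest of the 6 arrays and the other controls were the lowest, giving 0.16 ± 0.17 with all arrays (limma adjusted p = 0.643) and 0.36 without it (limma adjusted p = 0.001). COX6B2 had the same shape, at −0.01 with all arrays and 0.17 without siControl replicate 3 (limma adjusted p = 0.035).

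Complex V had 14 of 18 genes with a higher siTIG1 mean and a median of 0.08, or 0.06 without siControl replicate 3. On 8 genes the siTIG1 arrays lay wholly above and on 3 wholly below the siControl arrays, where 16.6% and 15.4% of all genes did. The F1 head makes ATP, and its alpha and beta subunits had the smallest differences of the complex. ATP5F1B, the catalytic beta subunit, had 14.85, 14.84 and 14.89 on siTIG1 arrays, against 14.86, 14.86 and 14.85 on siControl arrays, a difference of 0.00 ± 0.05. ATP5F1A, the alpha subunit, differed by −0.01 ± 0.05, and both values lay near the top of the table's range. ATP5F1C, the gamma subunit of the rotor, stood at 0.13 ± 0.07 with groups apart (limma adjusted p = 0.330).

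ATP5F1D, the delta subunit of the central stalk, was the one gene of complex V that passed with all arrays. It had 10.79, 10.59 and 10.62 on siTIG1 arrays, against 11.15, 11.07 and 10.97 on siControl arrays. All siTIG1 arrays were lower, and ATP5F1D fell by 0.40 ± 0.08, a fold of 1.32 (limma adjusted p = 0.037). Without siControl replicate 3 it was −0.44 (limma adjusted p = 0.001). The call was lost without siControl replicate 1 or 2 (limma adjusted p of 0.107 and 0.110) and without siTIG1 replicate 1, 2 or 3 (limma adjusted p of 0.059, 0.158 and 0.162). A second, dimmer probe set of the gene stood at −0.16 (limma adjusted p = 0.253 over every probe set).

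The membrane part and stalks of the ATP synthase were mixed. ATP5PD, subunit d of the outer stalk, had 10.72, 10.50 and 10.58 on siTIG1 arrays, against 10.34, 10.38 and 10.09 on siControl arrays. The groups were apart, and the 0.33 ± 0.10 difference (limma adjusted p = 0.114) was 0.24 without siControl replicate 3 (limma adjusted p = 0.028). ATP5PB, subunit b of the same stalk, stood at 0.16 (limma adjusted p = 0.224), also with groups apart.

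The genes ATP5MC1, ATP5MC2 and ATP5MC3 encode the same mature rotor-ring protein, subunit c, and did not share a direction. ATP5MC3 stood at 0.23 (limma adjusted p = 0.270) with the siTIG1 arrays above, and ATP5MC2 at −0.15 (limma adjusted p = 0.222) with them below. ATP5MC1 had 11.42, 11.49 and 11.48 on siTIG1 arrays, against 11.63, 11.66 and 10.89 on siControl arrays. The siTIG1 arrays lay between the controls, so that 0.07 with all arrays became −0.18 without siControl replicate 3 (limma adjusted p = 0.028). ATP5ME, subunit e, did likewise, at 0.03 with all arrays and −0.18 without that control (limma adjusted p = 0.030).

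ATP5MF, subunit f, had 7.64, 7.70 and 7.65 on siTIG1 arrays, against 7.87, 7.91 and 7.75 on siControl arrays (−0.19 ± 0.06, limma adjusted p = 0.133). Its siTIG1 arrays were all lower, and without siControl replicate 3 the difference was −0.23 (limma adjusted p = 0.008). Its signals lay under the median gene level of 8.74. ATP5IF1, the inhibitor that blocks ATP hydrolysis and which entered the family by its change of name from ATPIF1, stood at 0.11 (limma adjusted p = 0.521). ATP5MK and ATP5MJ, formerly USMG5 and C14orf2, stood at 0.06 and 0.08, neither passing. DMAC2 and DMAC2L, formerly ATP5SL and ATP5S, and COXFA4, formerly NDUFA4, fell outside the rule and stood at 0.05, −0.17 and 0.05, none passing.

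Most members had several probe sets, which need not report the same transcript forms. Of 44 genes with more than 1, 18 had all differences of 1 sign and 26 had both signs. With every probe set tested on its own, 7 of the 151 passed, against 5.95% of all 41091. The 4 higher ones were all SDHC, at 0.52, 0.48, 0.50 and 0.54. The names of those at 0.52, which stood for the gene, and 0.48 end in x_at, and of those at 0.50 and 0.54 in s_at. Whether the 4 read separate transcripts was not tested. The next SDHC probe set by brightness stood at 0.32 and the dimmest 2 at −0.16 and 0.01. None of those 3, whose names have neither ending, passed. The 3 lower ones were 1 each of ATP5F1D, COX5A and ATP5MG, subunit g of the ATP synthase.

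For COX5A and ATP5MG the called probe set disagreed with the one that stood for the gene. The dimmer COX5A probe set averaged 9.87 ± 0.01 on siTIG1 arrays and 10.53 ± 0.18 on siControl arrays (SD, n = 3 each), and it fell by 0.66 ± 0.10 (SE, limma adjusted p = 0.016), while the brighter stood at 0.05. The dimmest ATP5MG probe set averaged 12.18 ± 0.03 on siTIG1 arrays and 12.51 ± 0.09 on siControl arrays and fell by 0.32 ± 0.06 (limma adjusted p = 0.039), while its other 3, all with names ending in x_at, stood between 0.12 and 0.17. Such names are given to probe sets that can bind several transcripts, and 8 of the 77 genes, SDHC among them, were represented by one. ATP5F1C had 3 bright probe sets between 0.13 and 0.16 and a dim one at −0.48 (limma adjusted p = 0.145).

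**Figure D4:**
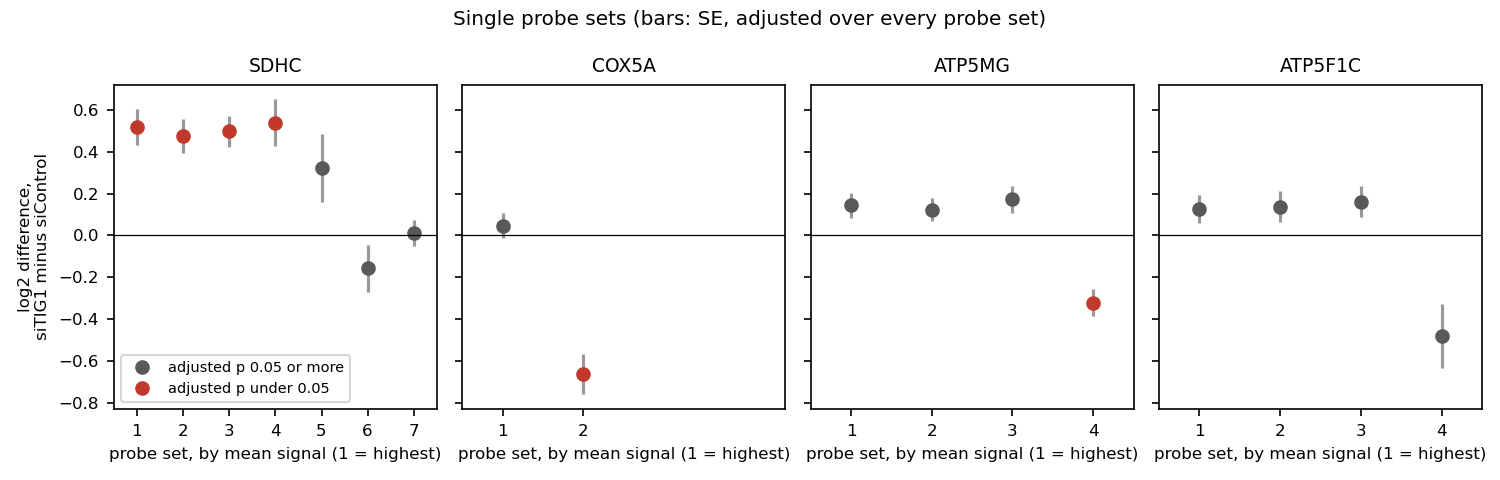
Log2 difference of siTIG1 minus siControl for each probe set of 4 genes, ordered by mean signal, with bars for the SE and red points for a limma adjusted p under 0.05 over every probe set. The SDHC probe sets 1 to 4 are red and lie near 0.5, whereas in COX5A and ATP5MG the dimmest probe set is red and negative and the brighter ones are just above 0.

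The genes around the complexes were read in 7 lists, in which 8 genes were called higher and 12 lower out of 231. The called shares over all genes were 3.15% higher and 4.17% lower. The 7 mitochondrially encoded respiratory genes with a probe set of 1 symbol were the closest in kind. Their groups did not overlap on any of the 7, with 6 higher and 1 lower in siTIG1, and their median was 0.12. Groups lay apart on 32% of all genes, 16.6% higher and 15.4% lower. COX3, a core subunit of complex IV, had 13.00, 12.95 and 12.87 on siTIG1 arrays, against 12.37, 12.31 and 12.67 on siControl arrays, and rose by 0.49 ± 0.10 (limma adjusted p = 0.042). The call was kept without siControl replicate 3 and lost without any one of the other 5 arrays (limma adjusted p up to 0.165). ATP6, of complex V, stood at 0.17 (limma adjusted p = 0.110). ND6, the complex I subunit encoded on the opposite strand from the other 6, stood at −0.18 (limma adjusted p = 0.138). Nuclear copies of mitochondrial DNA exist, and probe sets of these genes may share signal with them.

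Assembly factors help build the complexes without staying in them. Of 51, 3 were called higher and 4 lower (13.7%, against 7.32% of all genes), with a median of −0.05. UQCC3, needed for complex III, had 9.64, 9.73 and 9.66 on siTIG1 arrays, against 10.24, 10.23 and 10.21 on siControl arrays. The groups did not overlap, and UQCC3 fell by 0.55 ± 0.05 (limma adjusted p = 0.004), a call kept on leaving out any array (limma adjusted p up to 0.037). LYRM7, which helps place the Rieske protein in complex III, fell by 0.42 ± 0.06 (limma adjusted p = 0.015). COA5, a complex IV factor, rose by 0.43 ± 0.06 (limma adjusted p = 0.011), and TMEM126B, a complex I factor, rose by 0.42 ± 0.07 (limma adjusted p = 0.019). The widest differences that did not pass were COX20 at 0.56 and COX16 at 0.49, with siControl replicate 3 lying 1.26 and 0.90 below the other controls.

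The regulators of mitochondrial biogenesis leaned lower, with none of 25 called higher, 3 called lower (12.0%, against 4.17% of all genes called lower) and a median of −0.18. siControl replicate 3 was the highest of the 6 arrays for 14 of the 25. When it was left out, the median was −0.10 and 9 were called lower (36.0%, against 14.9% of all genes). PPRC1, a coactivator related to PGC-1 alpha, had 9.27, 9.27 and 9.20 on siTIG1 arrays, against 9.79, 9.79 and 9.71 on siControl arrays. The arrays were apart and PPRC1 fell by 0.52 ± 0.05 (limma adjusted p = 0.005), also on leaving out any array (limma adjusted p up to 0.044). POLG, the polymerase of mitochondrial DNA, fell by 0.49 ± 0.08 (limma adjusted p = 0.018), and SIRT1, a deacetylase acting on PGC-1 alpha, fell by 0.55 ± 0.09 (limma adjusted p = 0.021). POLRMT, the mitochondrial RNA polymerase, and PPARGC1B both stood at −0.61 without passing (limma adjusted p of 0.054 and 0.094).

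Of 26 genes of mitochondrial protein import, 1 was called lower and none higher (3.85%, against 7.32% of all genes), with a median of −0.08. TOMM70, an import receptor of the outer membrane, had 11.44, 11.43 and 11.41 on siTIG1 arrays, against 11.97, 11.89 and 11.87 on siControl arrays. It fell by 0.48 ± 0.05 (limma adjusted p = 0.006). HSPA9, the matrix chaperone that pulls proteins in, stood at −0.37 (limma adjusted p = 0.105) and IMMP2L, an inner membrane peptidase, at −0.31 (limma adjusted p = 0.711).

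Of 75 mitochondrial ribosomal proteins, 4 were called higher and 4 lower (10.7%, against 7.32% of all genes), with a median of 0.04. The median turned to −0.04 without siControl replicate 3, with 31 of the 75 means higher in siTIG1 instead of 44. In that setting limma called 9 higher and 17 lower (34.7%, against 27.2% of all genes). MRPL4 had 10.07, 10.01 and 10.07 on siTIG1 arrays, against 10.85, 10.83 and 10.81 on siControl arrays, and fell by 0.78 ± 0.05, a fold of 1.72 (limma adjusted p = 0.002). The lowest control array lay above the highest siTIG1 array. MRPS2 fell by 0.50 (limma adjusted p = 0.025), MRPS26 fell by 0.27 (limma adjusted p = 0.033) and MRPS14 rose by 0.36 (limma adjusted p = 0.031). MRPL50 and MRPL33 both stood at 0.36 without passing.

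Among 24 electron carriers and relatives of the subunits, and among 23 genes of the tricarboxylic acid cycle and pyruvate dehydrogenase, none passed in limma, with 3 and 2 genes at an unadjusted p under 0.05. Medians were 0.06 and −0.03 with all arrays, and 0.02 and −0.01 without siControl replicate 3. ETFB, which carries electrons from fatty acid oxidation, stood at 0.60 with all arrays and 0.21 without siControl replicate 3. PDSS2, of ubiquinone synthesis, stood at −0.31 (limma adjusted p = 0.281). PDK1 and PDK3, kinases that switch off pyruvate dehydrogenase, stood at −0.33 and −0.32 (limma adjusted p of 0.259 and 0.085). Without siControl replicate 3, limma called 23 genes higher and 57 lower over the 7 lists, where 12.3% and 14.9% of all genes were called. Of the 20 list genes called with all arrays, all 20 passed without that array, and UQCC3, PPRC1 and MRPL4 passed whichever array was left out. The other 17 lost the call without at least 1 of the other arrays, TOMM70 without siTIG1 replicate 2 alone (limma adjusted p = 0.050).

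**Figure D5:**
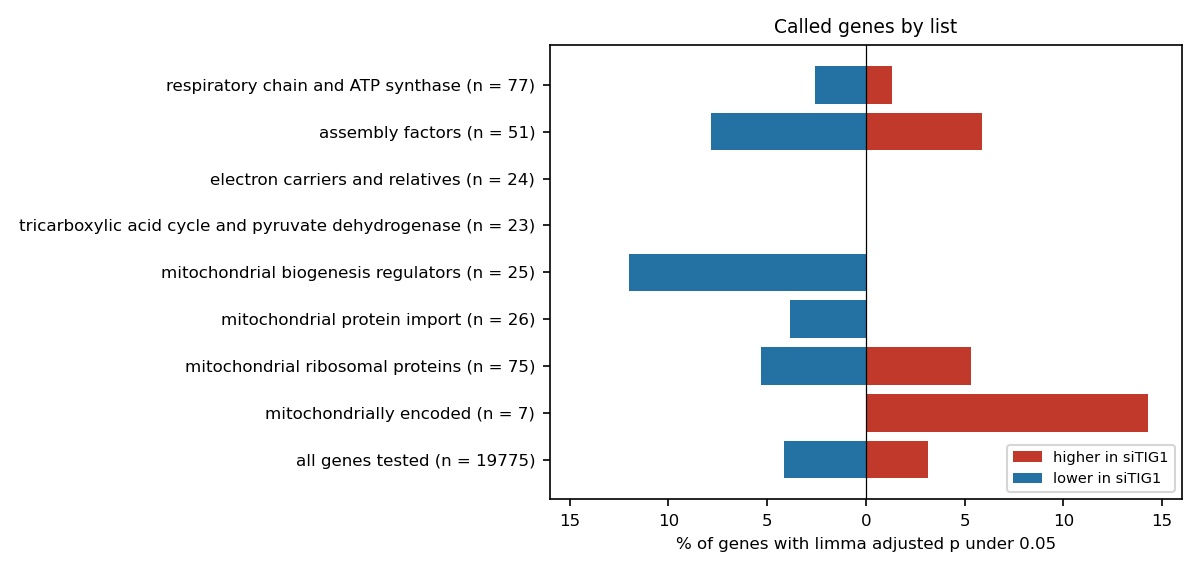
Share of each list with a limma adjusted p under 0.05, to the right where higher and to the left where lower in siTIG1 cells, with n the number of genes. The 77 respiratory chain and ATP synthase genes total 3.90%, below the 7.32% of all genes tested, and the regulators of biogenesis have calls on the lower side alone.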

How the data were processed

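Total RNA of 6 samples, 3 per group as the sample titles give them, was labelled with biotin and hybridised to Affymetrix HG-U133 Plus arrays, per the labels' protocols. The authors deposited 1 log2 value per probe set and array. MAS5 and RMA are named in the submitters' processing notes, and the sources used here do not say which of them made the values. The base was taken as 2 from the range of the values, 4.28 to 15.59. Array medians lay between 7.87 and 7.90, so the deposited log2 values were used without further normalization. Such normalization hides a shift shared by most genes. No detection call or background is given, so low signals have no stated floor and folds measured against them can be too small. Signals of different probe sets are not comparable in level. The number of arrays limits the precision.

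Of 54675 probe sets, 62 were controls, 41091 had 1 gene symbol, 1801 several and 11721 were not listed in the platform annotation. Symbols were updated through the RefSeq table, which held 19735 of the 19775 genes. The probe set with the highest mean stood for a gene. Of the probe sets with several symbols, 12 matched a subunit family and stood for no member, and 2 pseudogene symbols were left out. The fit used limma 3.58.1 (lmFit, eBayes, 2-sided, no block) under R 4.3.3, with Benjamini-Hochberg adjustment over 19775 genes and a threshold of 0.05. Differences are siTIG1 minus siControl in log2 signal with the SE of the fit. A fold is given as a size, larger over smaller. Groups that do not overlap have every array of one beyond every array of the other.

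The members, lists, tests and named genes were chosen with earlier results of these data known. Named were the members past the threshold, the 3 largest differences each way in each complex, the catalytic core, the tissue-restricted complex IV forms with their partners, genes that changed symbol, and in each list up to 4 genes past the threshold by p and the 2 largest others. Genes called without siControl replicate 3, subunits and probe sets given to complete a count, COX7A2L, the NRF1 and GABPA genes and the array markers were added after their values were seen. Data were simulated for this comparison over 19775 genes, 200 of them changed. On these the test recovered 0% of differences of 0.25, 48% of 0.5, 80% of 1 and 94% of 2, with 7 false calls. Alternatives were other choices of probe set, median centring, quantile normalization, genes above the median level alone, a trended robust fit, a replicate block, and leaving out each array.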

Additional observations from a re-analysis of the deposited data

How the results depend on the processing

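All 6 medians, over the members and in each complex, stayed positive under each alternative. Leaving out 1 array gave 102 to 2423 genes called higher and 120 to 2952 lower over the whole table, 0 to 14 members higher and 0 to 5 lower, and 0 to 23 list genes higher and 3 to 57 lower. The highest counts came without siControl replicate 3. The medians ranged from 0.08 to 0.12 over the members, 0.07 to 0.15 in complex I, 0.13 to 0.17 in complex II, 0.09 to 0.15 in complex III, 0.06 to 0.11 in complex V, and 0.025 (without siControl replicate 2) to 0.075 in complex IV.

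Same-numbered arrays correlated at −0.08, 0.02 and −0.04 in their deviations from the group means. With 3 arrays per group and siControl replicate 3 apart, these values cannot decide whether the replicate numbers pair the samples. The sample titles do not say. With the replicate number as a block, 104 genes were called higher and 134 lower over the table, 0 and 0 members, and 0 and 3 list genes. Testing every probe set gave 1066 higher and 1378 lower, 4 members' probe sets higher and 27 list probe sets lower, with medians of 0.23 in complex II and 0.035 in complex III. Quantile normalization gave 2 members higher (SDHC and NDUFA13) and 0 lower, and a complex V median of 0.10. The trended robust fit gave 0 members lower and 3 list genes higher. Averaging the probe sets of each gene gave 4 list genes higher and medians of 0.051 over the members, 0.037 in complex III and 0.041 in complex V. Genes above the median level alone gave a complex IV median of 0.10. With x_at probe sets used only for genes with no other, 3 members were lower, ATP5MG being the addition.

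SDHC passed under each of these apart from the block (limma adjusted p = 0.073). ATP5F1D missed the threshold in the averaged, quantile, trended and block settings (limma adjusted p of 0.068, 0.065, 0.057 and 0.073). CYC1 missed it in the quantile, trended and block settings (limma adjusted p of 0.057, 0.059 and 0.148). It also did so with every probe set tested (limma adjusted p = 0.053). COX5A was called at −0.31 in the mean of its probe sets, of which the dimmer was −0.66, and COX6B2 at 0.17 without siControl replicate 3, in a range from −0.10 to 0.17 over the arrays left out. The other causes were not tested. Of the 72 named genes, the sign of an uncalled value changed in 11 cases among the other settings and in 12 on leaving out an array. Simulated differences of 0.25 were not recovered, but the simulation changed 200 genes, whereas 1448 passed in the data. Its recovery shares therefore need not hold for these data, in which CYC1 was called at −0.27. Members that did not pass were not shown to be unchanged.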
